A study of Mus musculus with 72 samples.

Results

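RNA was compared between RAW264.7 cells carrying a short hairpin RNA against the corepressor SMRT (shSMRT) and RAW264.7 cells carrying a hairpin against GFP (shGFP), a sequence that the cells do not contain. RAW264.7 is a macrophage-like line from a BALB/c mouse. The hairpins had been delivered by lentivirus, the cells were kept in DMEM with serum and without further treatment, and polyadenylated RNA was sequenced from 3 libraries per group, so 6 of the series' 72 samples are compared here. Another group of 3 libraries, with a hairpin against the related corepressor NCOR (shNCOR), shares the fit and is cited only where it adds to a result. All groups thus carry a viral hairpin, and each group's virus targets a different sequence. A gene was a member of the comparison if it had at least 1 RPKM (reads scaled by exon length and by library size) in at least 3 of the 6 libraries, which held for 10688 of the 25124 genes in the table. Of these, 10519 met the minimum in libraries of both groups, 135 only through shSMRT and 34 only through shGFP, and genes of these last 2 kinds had to differ. The 6 libraries held 39.1 to 44.2 M reads. No label says that replicate libraries stem from separate cultures, so the p-values rest on a spread from library to library that could be purely technical. Each hairpin came with its own virus and population of cells, so loss of the target cannot be told apart from other differences between the populations, and in bulk RNA a change in the number of cells of a kind cannot be told apart from a change in RNA per cell.

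SMRT is a large scaffold protein that, like its paralogue NCOR, joins transcription factors to the histone deacetylase HDAC3, the WD40 proteins TBL1X and TBLR1, and GPS2. Unliganded nuclear receptors are its classical partners, and in macrophages the same complex is known to restrain genes of inflammation, such as those driven by NF-kB and AP-1, until a signal releases it. Removal of acetyl groups from histones near bound sites is associated with low transcription, which is why a lowered corepressor is usually studied through the genes that rise.

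Fold changes below are shSMRT minus shGFP on the log2(RPKM + 1) scale with their standard errors, from 1 limma fit over the 3 hairpins (9 libraries), and a gene was called at a Benjamini-Hochberg adjusted p under 0.05 over all 10688 genes. On this scale 2619 genes were higher in shSMRT (24.5% of those tested) and 3385 were lower (31.7%), and for 63.4% of all tested genes every library of one group lay above every library of the other. Most changes were small: 1043 of the higher and 1775 of the lower genes differed by less than 0.25. Large changes were more often rises: 156 genes (1.46%) were higher by at least 1 and 40 (0.374%) lower by at least 1, and 30 were higher by at least 2 against 1 lower. Against a minimum fold of 1.2 the calls came to 726 higher and 534 lower, and 57 of the 189 called genes that the naming rule picked lost their calls in that test. The median over all tested genes was -0.02, and with median ratio scaling, which shifted it by 0.02, the split was 2897 higher and 3008 lower.

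**Figure D1:**
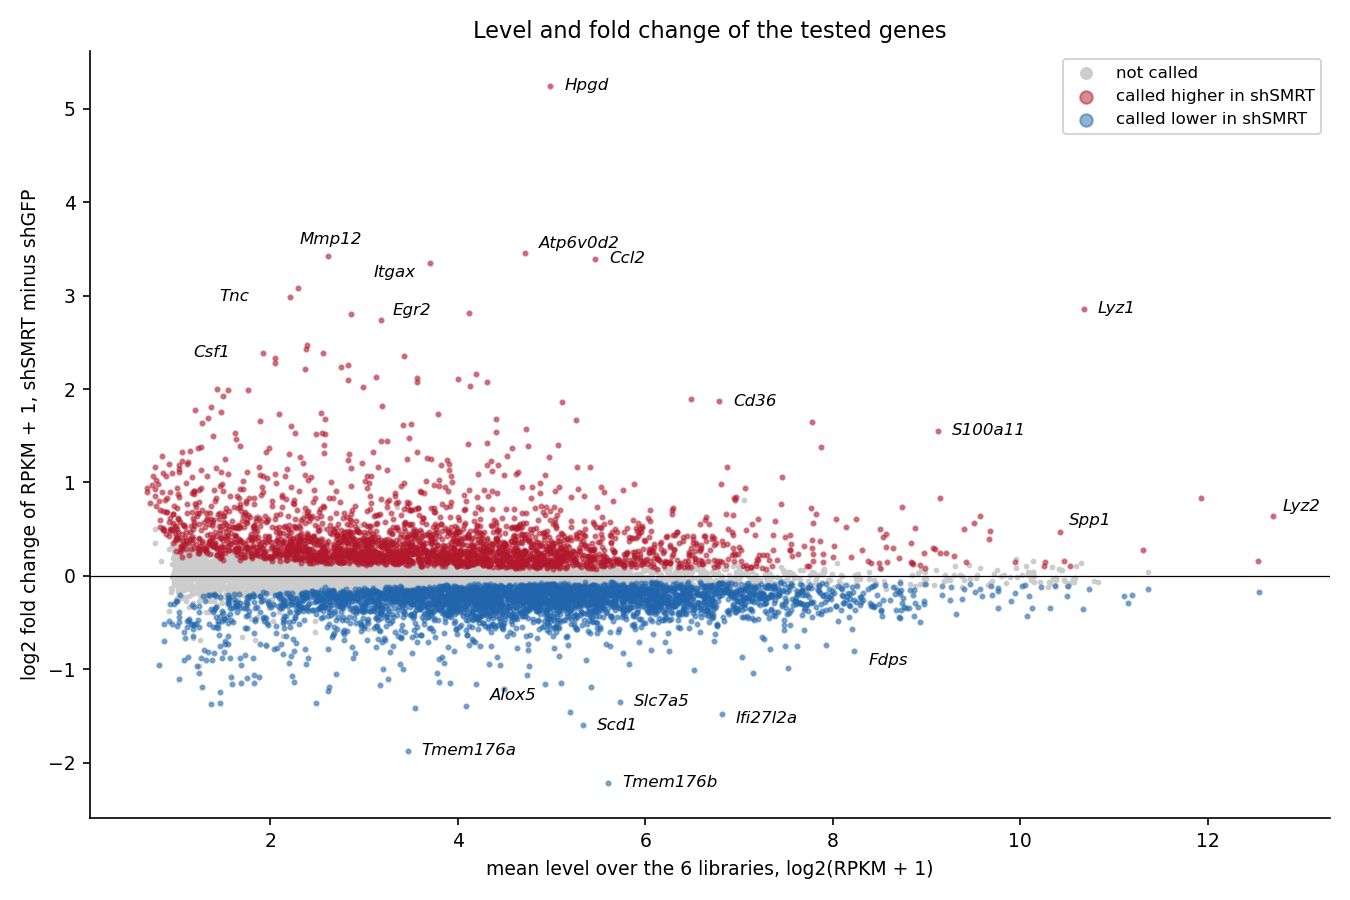
Level against fold change of the 10688 tested genes: the x axis is the log2 of the mean RPKM over the 6 libraries plus 1, the y axis the log2 fold change, shSMRT minus shGFP, and each point is a gene (red, called higher in shSMRT; blue, called lower; grey, not called). The upper arm reaches 5.25 (Hpgd) and holds the abundant Lyz1, whereas the lower arm ends at -2.21 (Tmem176b).

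The subunits that hold the corepressor complex together changed little. Ncor1, which encodes NCOR, had 18.9, 20.2 and 20.2 RPKM in shSMRT and 18.4, 20.2 and 18.7 in shGFP (0.05 ± 0.06, adjusted p = 0.494), and the groups overlapped. Of the other subunits, Tbl1xr1 (TBLR1) rose by 0.40 ± 0.05 and the actin-binding Coro2a by 0.31 ± 0.06, Hdac3 fell slightly (-0.17 ± 0.03), and Tbl1x (-0.04 ± 0.05) and Gps2 (-0.06 ± 0.05) were not called. These were 3 calls on 6 tested subunits, a share near the 56.2% called among all genes, and none of the 3 held against a fold of 1.2.

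Among all tested genes Hpgd showed the largest change. Hpgd (chr8:56294552-56321046, plus strand, mm10) encodes 15-hydroxyprostaglandin dehydrogenase, which inactivates prostaglandins. It had 62.5, 58.9 and 61.2 RPKM in shSMRT, against 0.689, 0.508 and 0.700 RPKM in shGFP (5.25 ± 0.09, adjusted p = 8.55e-12), so the level was 96.3 times as high. The shNCOR cells averaged 0.898 RPKM, and shSMRT exceeded them by 5.03 ± 0.09 (adjusted p = 1.34e-11). Itgax (chr7:128129550-128150657), the integrin subunit CD11c, had 22.4, 24.1 and 21.7 RPKM in shSMRT and 1.24, 1.34 and 1.40 RPKM in shGFP (3.35 ± 0.05), and it averaged 5.71 RPKM in shNCOR, between the other groups (shSMRT minus shNCOR, 1.82 ± 0.05). Each of the 3 shSMRT libraries was far above every shGFP library for both genes. Hpgd reached the minimum of 1 RPKM in shSMRT only, so its groups had to differ.

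Several of the genes with large rises were near silence in the control cells. The macrophage elastase gene Mmp12 had 10.2, 9.91 and 10.6 RPKM in shSMRT and 0.0510, 0.0570 and 0.0280 in shGFP. The matrix glycoprotein gene Tnc had 7.12, 7.66 and 6.92 RPKM in shSMRT and 0.0740, 0.0180 and 0.0230 in shGFP. Mt3, a metallothionein, had 6.58, 9.47 and 7.31 RPKM in shSMRT and 0.0870, 0 and 0 in shGFP, 2 of the 3 shGFP libraries being listed at 0. The gelatinase gene Mmp9, the lymphatic growth factor gene Vegfc, the cyclin gene Ccnd2, the histone demethylase gene Kdm5b, the endocytosis gene Pacsin1 and the LXR target Arl4c likewise averaged under 0.2 RPKM in shGFP and 2.66 to 3.67 RPKM in shSMRT. Of these, Vegfc averaged 3.67 RPKM in shSMRT and 3.30 RPKM in shNCOR, a difference that was not called (shSMRT minus shNCOR, 0.12 ± 0.08, adjusted p = 0.277). For genes this low, the pseudocount of 1 RPKM holds the fold change down. None of the genes in this set reached the minimum in shGFP, so their groups had to differ.

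Signalling genes formed a further set of strong rises. Csf1 (chr3:107741048-107760469), which encodes the growth factor M-CSF that macrophages need, had 6.00, 5.06 and 5.09 RPKM in shSMRT and 0.283, 0.104 and 0.275 in shGFP (2.39 ± 0.09, adjusted p = 4.93e-09), and shNCOR cells averaged 0.216 RPKM. Rgs16, a brake on G protein signalling, had 7.59, 8.39 and 7.43 RPKM in shSMRT and 0.665, 0.604 and 0.646 in shGFP (2.42 ± 0.07). Pdcd1, which encodes the inhibitory receptor PD-1, had 6.20, 5.57 and 5.92 RPKM in shSMRT and 0.276, 0.505 and 0.345 in shGFP (2.33 ± 0.08). In all 3 the lowest shSMRT library was at least 10 times the highest shGFP library. These 3 genes reached the minimum of 1 RPKM in shSMRT only, so their groups had to differ. Other rises of this size were those of Src (a tyrosine kinase, 2.28 ± 0.08), Phlda1 (2.13 ± 0.09), Uchl1 (a ubiquitin hydrolase, 2.81 ± 0.12), Mxd4 (a MAX partner that opposes MYC, 2.12 ± 0.07), Qpct (glutaminyl cyclase, 2.21 ± 0.09), Bdh2 (2.35 ± 0.09) and Ephx1 (microsomal epoxide hydrolase, 2.10 ± 0.07).

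**Figure D2:**
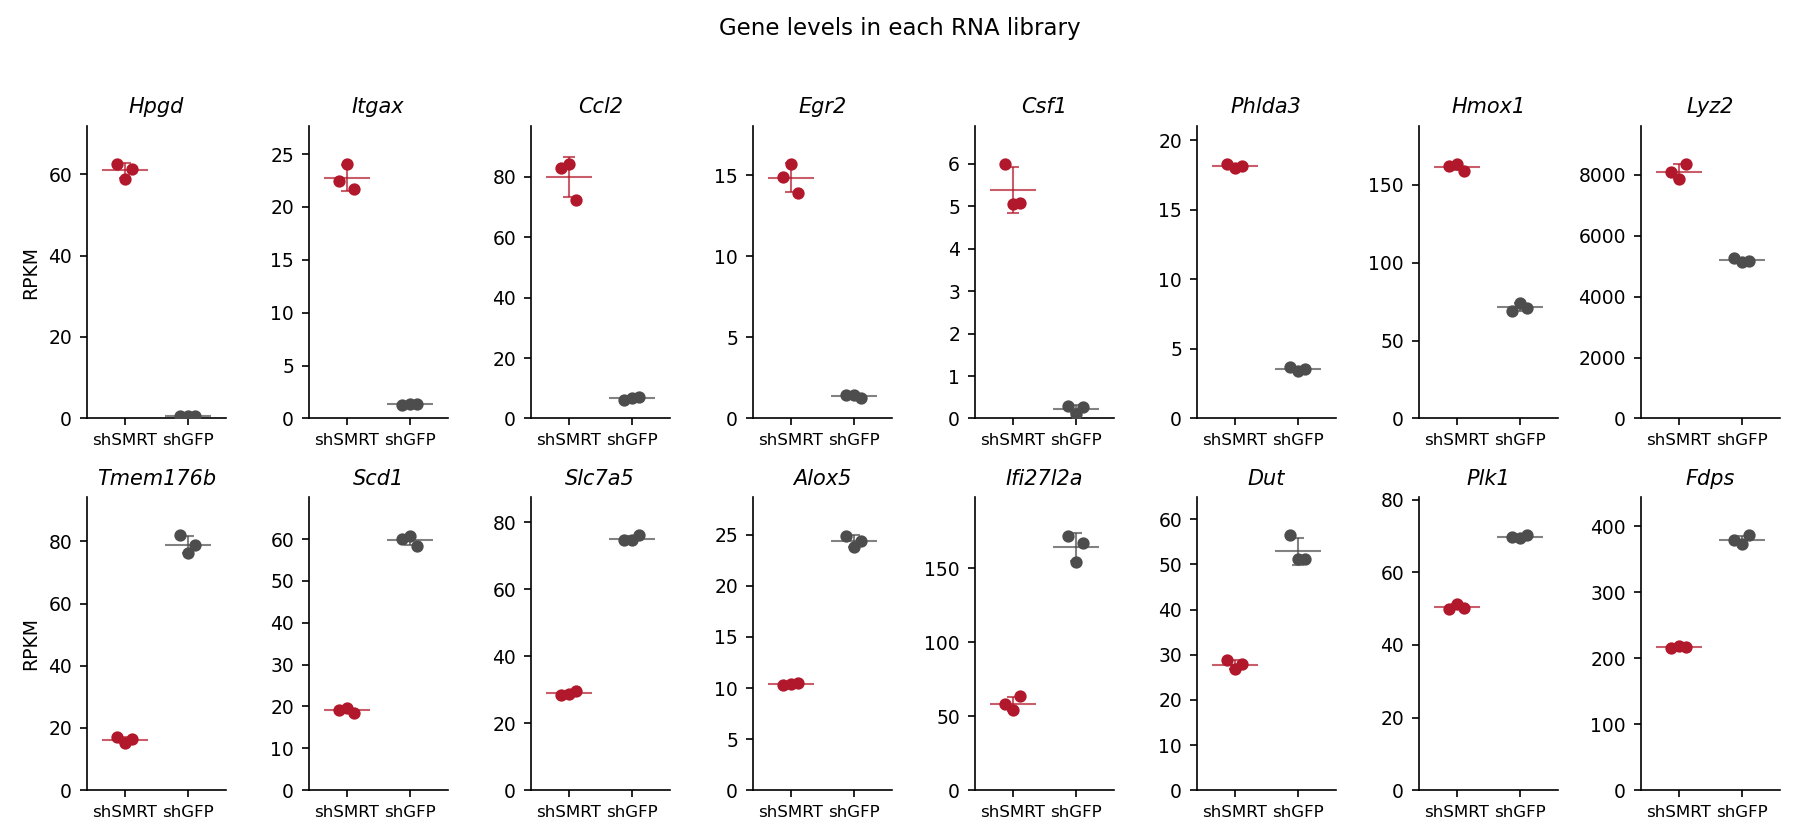
RPKM of 16 genes in each library: points are libraries (shSMRT in red on the left, shGFP in grey on the right), the line and bars are the mean and SD of 3 libraries, and every axis starts at 0. The groups do not overlap in any of the 16 panels, as holds for 63.4% of all tested genes. The genes shown were chosen with results of these data known, and Hpgd and Csf1 reached the minimum in shSMRT only.

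Immediate early genes, which encode transcription factors and phosphatases switched on within minutes of a stimulus, were higher in the unstimulated shSMRT cells. Of 28 tested members of the list, 21 rose and 2 fell, with a median of 0.53, where 24.5% of all genes rose and the median was -0.02. Of the 28, 1 reached the minimum in 1 group only. Egr2, a zinc finger factor of the EGR family, had 14.9, 15.7 and 13.9 RPKM in shSMRT and 1.42, 1.45 and 1.26 in shGFP (2.74 ± 0.06, adjusted p = 4.29e-11). Its relatives Egr1 (1.09 ± 0.04) and Egr3 (1.01 ± 0.06) rose as well, as did the orphan receptor Nr4a1 (1.07 ± 0.06). Among AP-1 subunits, Fos (0.99 ± 0.05), Junb (0.81 ± 0.03), Fosl2 (0.74 ± 0.04) and Fosl1 (0.54 ± 0.07) rose, whereas Jun had 22.4, 24.8 and 22.6 RPKM in shSMRT and 29.9, 29.5 and 29.6 in shGFP and so fell (-0.34 ± 0.04). The MAP kinase phosphatases Dusp5 (1.33 ± 0.07) and Dusp1 (1.31 ± 0.06) rose. Klf4, a factor of monocyte differentiation, was the other member that fell (-0.54 ± 0.08).

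Promoters of genes that rose are printed here because AP-1 subunits moved, and the AP-1 motif (TGANTCA, read on both strands) could be looked for in 8376 promoters that RefSeq (GRCm38.p6) gives for tested genes. It lay in 10 of 113 promoters of genes higher by at least 1 (8.85%) and in 1 of 26 of genes lower by at least 1 (3.85%), against 4.64% of all. Over all higher genes the share was 5.27% and over all lower genes 4.48%, and none of 21 matched promoters of the immediate early list held it. The 150 bases before the start site of Mmp12 (chr9:7347224-7347373), Itgax (chr7:128129400-128129549) and the costimulatory gene Cd80 (chr16:38458783-38458932), all on the plus strand, each hold 1 match, which is in capitals.
Mmp12: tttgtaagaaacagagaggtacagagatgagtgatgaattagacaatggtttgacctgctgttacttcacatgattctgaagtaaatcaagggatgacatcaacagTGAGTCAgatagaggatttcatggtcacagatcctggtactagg
Itgax: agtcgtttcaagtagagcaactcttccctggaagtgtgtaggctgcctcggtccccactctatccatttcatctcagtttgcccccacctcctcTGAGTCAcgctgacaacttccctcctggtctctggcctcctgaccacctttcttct
Cd80: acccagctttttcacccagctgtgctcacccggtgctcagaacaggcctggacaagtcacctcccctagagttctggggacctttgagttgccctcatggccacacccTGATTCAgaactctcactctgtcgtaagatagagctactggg
The matches begin 44, 56 and 42 bases before the start sites. They describe these letters, and binding was not measured here. The EGR motif (GCGGGGGCG, both strands) lay in 11 of 113 promoters of genes higher by at least 1 (9.73%) and in none of 26 lower by at least 1. Its share was 5.59% of all promoters, 6.69% over all higher and 4.66% over all lower genes, and 6 of 21 in the immediate early list (28.6%).

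Cytokine and chemokine genes were mostly higher where they were expressed at all. Of 15 tested members, 2 of which reached the minimum in 1 group only, 11 rose and 1 fell (median 0.59), where 24.5% of all genes rose and 31.7% fell. The other 13 listed genes, among them Il1b, Il6 and Il12b, did not reach the minimum. Ccl2, which attracts monocytes, had 83.1, 84.4 and 72.4 RPKM in shSMRT and 6.06, 6.89 and 7.13 in shGFP (3.40 ± 0.07, adjusted p = 2.55e-11). The chemokine genes Cxcl14 (1.67 ± 0.04) and Ccl9 (1.64 ± 0.04) rose, and Ccl9 was abundant, at 332 ± 7.98 RPKM in shSMRT and 106 ± 3.11 RPKM in shGFP (SD, n = 3 each). Tnf was not called (difference of 0.00 ± 0.07, adjusted p = 0.998), with 41.2, 39.2 and 39.2 RPKM in shSMRT and 39.2, 41.5 and 39.0 in shGFP. The member that fell was Ccl5 (-0.48 ± 0.14), whose groups overlapped and whose call ended without shSMRT replicate 1 (adjusted p = 0.0636) or without shGFP replicate 3 (0.0697). Of 21 tested NF-kB subunits and feedback genes, 14 rose and 3 fell (median 0.29). The inhibitor gene Nfkbie rose most (1.00 ± 0.05), then Ptgs2 (0.82 ± 0.07) and the apoptosis inhibitor Birc3 (0.72 ± 0.07), while Nfkbib (-0.28 ± 0.05), Traf1 (-0.31 ± 0.08) and the kinase gene Ikbke (-0.33 ± 0.08) fell. Against a fold of 1.2, 6 of the 14 higher NF-kB genes and none of the 3 lower ones were called.

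Osteoclasts are bone-resorbing cells that form from macrophage precursors, and RAW264.7 cells are able to become osteoclast-like. Of 16 tested osteoclast genes, 2 of which reached the minimum in 1 group only, 12 rose and 3 fell, with a median of 1.05. Over all genes 24.5% rose and 31.7% fell. Acp5, the tartrate-resistant phosphatase, had 29.1, 28.6 and 30.7 RPKM in shSMRT and 3.65, 3.17 and 3.18 in shGFP (2.81 ± 0.05). Ctsk, the collagen-cutting cathepsin K, had 9.30, 9.19 and 8.27 RPKM in shSMRT and 0.925, 0.682 and 1.10 in shGFP (2.39 ± 0.11). Atp6v0d2, a proton pump subunit needed for cell fusion, had 48.7, 47.2 and 45.6 RPKM in shSMRT and 3.23, 3.79 and 3.15 in shGFP (3.46 ± 0.06). In shNCOR, Acp5 averaged 12.9 RPKM and Atp6v0d2 17.7 RPKM, both between shSMRT and shGFP. Not all genes of the programme moved in this way: Car2, the carbonic anhydrase that supplies protons, had 94.9, 90.0 and 91.4 RPKM in shSMRT and 194, 181 and 196 in shGFP (-1.04 ± 0.04), and Traf6, an adaptor of RANK signalling (-0.47 ± 0.05), and Ostm1 (-0.14 ± 0.04) fell as well. The defining osteoclast genes Calcr and Itgb3 stayed near 0, at 0 to 0.007 and 0.03 to 0.063 RPKM in shSMRT and at 0 and 0.013 to 0.068 RPKM in shGFP. Oscar, also under the minimum and so not tested, had 0.211, 0.181 and 0.286 RPKM in shSMRT and 0, 0 and 0.028 in shGFP.

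Genes of macrophage identity and of phagocytosis were mostly higher. Of 24 tested identity genes 19 rose and 3 fell (median 0.50), and of 24 tested phagocytic and lectin receptors 19 rose and 5 fell (median 0.51). In each list 1 gene reached the minimum in 1 group only. Over all genes 24.5% rose and 31.7% fell. Lysozyme, the enzyme that cuts bacterial cell walls, had the largest gains in RPKM of all genes. Lyz1 had 2892, 2723 and 2998 RPKM in shSMRT and 391, 401 and 392 in shGFP (2.86 ± 0.04), and Lyz2 had 8089, 7859.8 and 8363 RPKM in shSMRT and 5271, 5149.6 and 5165 in shGFP (0.64 ± 0.04). The 2 genes are near-identical neighbours, so reads could be split between them. The fungal receptors Clec7a (2.16 ± 0.05) and Clec4n (2.47 ± 0.13) and the scavenger receptor Cd36 (1.87 ± 0.04) rose. Fc receptors divided, since the low-affinity Fcgr3 rose (1.12 ± 0.04) and the high-affinity Fcgr1 fell (-0.86 ± 0.05), as did the fractalkine receptor Cx3cr1 (-0.38 ± 0.04) and the endotoxin receptor Cd14 (-0.14 ± 0.03). The other phagocytic genes that fell were the integrin subunit Itga4 (-0.44 ± 0.06), the bridging ligand Gas6 (-0.33 ± 0.06) and the scavenger receptors Scarb1 (-0.30 ± 0.03) and Scarb2 (-0.18 ± 0.03).

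Summed markers of macrophages and of other cells were set beside these lists, and their part in the results was not tested. Of 10 macrophage markers 9 rose and 1, Cd14, fell, and their summed level was 11027 to 11618 RPKM in shSMRT and 7992 to 8221 RPKM in shGFP, most of it Lyz2. Of 8 osteoclast markers 5 were tested and all 5 rose (summed 89.3 to 95.2 RPKM in shSMRT and 22.6 to 23.6 RPKM in shGFP). One of the 5, Mmp9, reached the minimum in shSMRT only and so had to rise. Rises were called for 24.5% of all genes. None of 8 dendritic cell markers, 8 neutrophil markers or 5 mast cell markers reached the minimum. Their sums were 0.972 to 1.44 RPKM in shSMRT and 0.396 to 0.62 RPKM in shGFP for dendritic cells, with Flt3, Ccr7 and Cd209a at 0, and 0.449 to 0.54 RPKM in shSMRT and 0.06 to 0.517 RPKM in shGFP for neutrophils, with S100a9, Ly6g and Mpo at 0. All mast cell markers were at 0 in the 6 libraries. Of 11 lymphocyte markers only Lck was tested (0.07 ± 0.12), and of 13 fibroblast or epithelial markers only Tagln (0.04 ± 0.08), and neither was called. Cd3d, Cd8a and Ms4a1 of the lymphocyte markers and Col1a1, Col1a2, Dcn and Epcam of the others were at 0, while the summed levels were 0.893 to 1.63 RPKM in shSMRT and 0.944 to 1.32 RPKM in shGFP for lymphocytes, and 1.54 to 1.70 RPKM in shSMRT and 1.27 to 1.40 RPKM in shGFP for fibroblasts and epithelia.

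Genes for digestion in lysosomes and for the matrix moved with them. Of 31 tested lysosomal hydrolases and proton pump subunits 23 rose and 2 fell (median 0.28), although only 12 of the 23 were called against a fold of 1.2. Over all genes 24.5% rose and 31.7% fell. The cathepsins Ctsl (0.83 ± 0.03) and Ctsd (0.48 ± 0.03) and the sialidase Neu1 (0.52 ± 0.04) rose, and the membrane protein Lamp1 fell (-0.32 ± 0.02). Ctsd had 966, 942 and 949.9 RPKM in shSMRT and 685, 684 and 679 in shGFP. Tfeb, which encodes a factor that drives lysosomal genes, was slightly lower (-0.14 ± 0.04, adjusted p = 0.0228), a call that ended under 4 other settings and without shSMRT replicate 2 or shGFP replicate 2 (adjusted p from 0.0541 to 1, the last against a fold of 1.2). Of 14 tested matrix proteases, inhibitors and matrix proteins, 3 of which reached the minimum in 1 group only, 12 rose and none fell (median 0.49); besides Mmp12, Tnc and Mmp9 these included the cross-linking enzyme gene Tgm2 (2.09 ± 0.07) and osteopontin, Spp1 (0.47 ± 0.03), at 1595 ± 45.2 RPKM in shSMRT and 1148 ± 16.4 RPKM in shGFP (SD, n = 3 each).

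**Figure D3:**
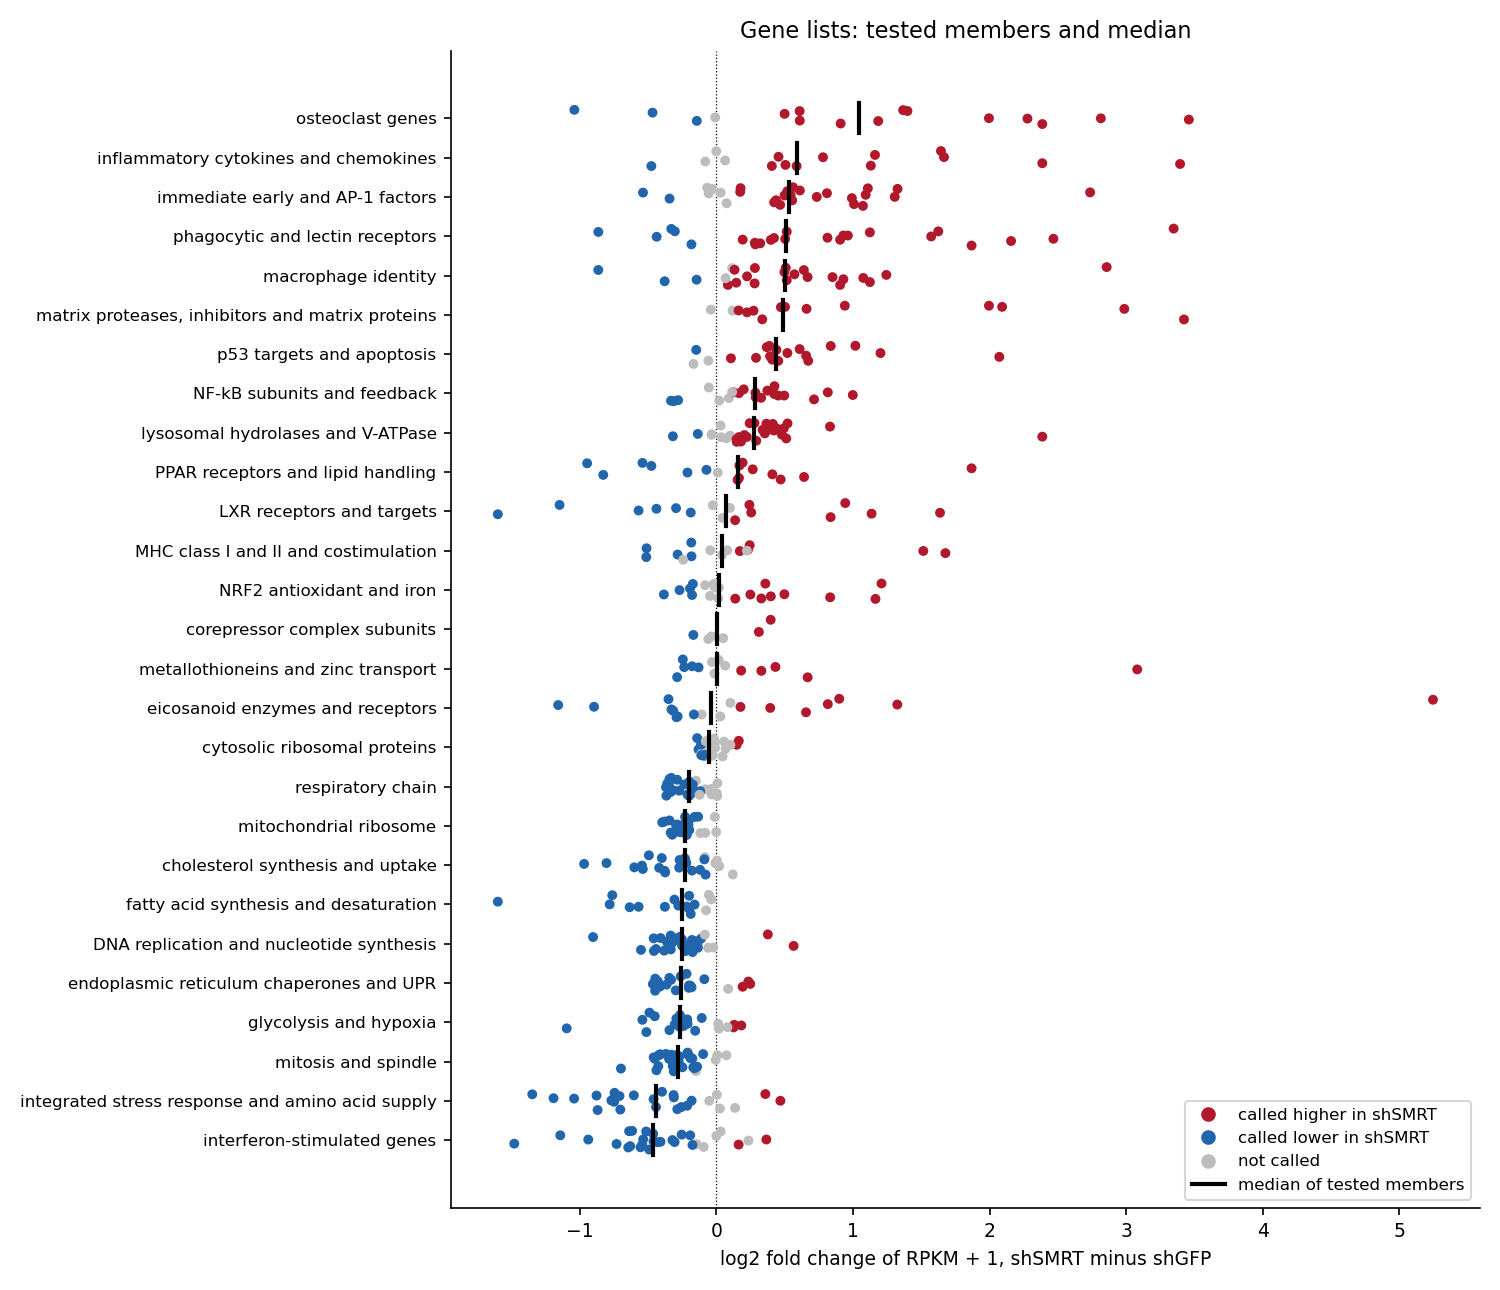
Fold changes of the tested members of 27 gene lists: each point is a gene on the log2(RPKM + 1) scale, shSMRT minus shGFP (red, called higher in shSMRT; blue, called lower; grey, not called), and the black bar is the list's median. Medians run from -0.46 (interferon-stimulated genes) to 1.05 (osteoclast genes).

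Eicosanoids are lipid signals made from arachidonic acid, by cyclooxygenases into prostaglandins and by lipoxygenases into leukotrienes. Of 18 tested genes of this list 7 rose and 8 fell (median -0.04), so that its members went both ways. Among all genes 24.5% rose and 31.7% fell. Hpgd and Ptgir are among 3 members that reached the minimum in 1 group only and so had to differ. On the prostaglandin side the cyclooxygenases Ptgs1 (1.32 ± 0.07) and Ptgs2 (0.82 ± 0.07), the thromboxane synthase Tbxas1 (0.90 ± 0.11) the receptor Ptger4 (0.66 ± 0.07) and the degrading enzyme Hpgd rose, and the synthase Ptges3 fell (-0.29 ± 0.03). Ptgs1 averaged 11.3 RPKM in shSMRT and 12.7 RPKM in shNCOR (-0.16 ± 0.07, adjusted p = 0.0844). On the leukotriene side the lipoxygenase Alox5 had 10.3, 10.4 and 10.5 RPKM in shSMRT and 24.9, 23.8 and 24.4 in shGFP (-1.16 ± 0.04, adjusted p = 1.34e-09), and its helper Alox5ap fell by 0.35 on the log2 scale. The prostacyclin receptor Ptgir fell, with 0.849, 0.907 and 0.715 RPKM in shSMRT and 2.32, 2.37 and 2.48 in shGFP (-0.90 ± 0.08). Against a fold of 1.2, 6 of the 7 higher and 2 of the 8 lower calls were made.

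Genes of heme and iron were among the larger rises of the antioxidant list, of which 9 of 20 tested members rose and 5 fell (median 0.02). Hmox1, which degrades heme, had 162, 164 and 159 RPKM in shSMRT and 69.2, 74.2 and 71.1 in shGFP (1.17 ± 0.03, adjusted p = 6.94e-10). Slc40a1, which encodes ferroportin, the exporter of iron from cells, had 10.4, 9.97 and 9.76 RPKM in shSMRT and 3.46, 4.25 and 3.65 in shGFP (1.21 ± 0.06). The ferritin chains parted: Fth1 had 5094, 5016 and 4825 RPKM in shSMRT and 2872, 2706 and 2802 in shGFP (0.83 ± 0.04), and Ftl1 had 5664, 5589 and 5607 RPKM in shSMRT and 6330.1, 6257 and 6405 in shGFP (-0.17 ± 0.04). Ferritin genes have processed copies elsewhere in the genome, so their counts are uncertain. Quantile normalization, which gives equal ranks equal values, ended the Fth1 call (0.11, adjusted p = 0.196), and the Ftl1 call ended with no filter on low values (adjusted p = 0.0843). The thiol peroxidase Prdx1 (0.50 ± 0.03) and the transferrin receptor Tfrc (0.40 ± 0.03) rose, and the reductase Gsr (-0.38 ± 0.03), the transferase Gstm1 (-0.27 ± 0.07), thioredoxin, Txn1 (-0.19 ± 0.05), and Taldo1 (-0.18 ± 0.04) made up the rest of those that fell. Of 14 tested metallothionein and zinc transport genes, 1 of which reached the minimum in 1 group only, 5 rose and 5 fell (median 0.00). Among all genes 24.5% rose and 31.7% fell. Besides Mt3, the zinc exporter Slc30a1 rose (0.67 ± 0.05), whereas the abundant Mt1 (-0.23 ± 0.05) and Mt2 (-0.25 ± 0.08) were lower. The Mt2 call ended without shSMRT replicate 2, shSMRT replicate 3 or shGFP replicate 3, with no filter and under quantile normalization (adjusted p from 0.0535 to 0.102), and under the last of these 3 members were lower in place of 5.

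Genes known as p53 targets or as parts of apoptosis were mostly higher. Of 19 tested, 1 of which reached the minimum in 1 group only, 16 rose and 1 fell, with a median of 0.44, and 12 of the 16 were called against a fold of 1.2. Over all genes 24.5% rose and 31.7% fell. Phlda3, an AKT repressor, had 18.3, 18.0 and 18.1 RPKM in shSMRT and 3.69, 3.39 and 3.59 in shGFP (2.07 ± 0.07, adjusted p = 3.02e-09). The SD within each group was 0.156 RPKM, and the groups lay far apart. Trp53inp1, an autophagy and stress gene, had 2.32, 1.63 and 2.11 RPKM in shSMRT and 0.292, 0.318 and 0.312 in shGFP. The kinase Plk2 (1.02 ± 0.06), the death receptor Fas (0.84 ± 0.17) and the cell cycle inhibitor Cdkn1a (0.66 ± 0.03) rose, and the gene for p53 itself, Trp53, was slightly lower (-0.15 ± 0.03), a call that ended under quantile normalization (adjusted p = 0.111). Members span pro-apoptotic genes, of which Bbc3 (0.37 ± 0.07) and Pmaip1 (0.41 ± 0.04) rose, and anti-apoptotic ones, of which Bcl2l1 (0.67 ± 0.05) rose and Bcl2 was not called (-0.17 ± 0.09).

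Among genes that fell, the neighbours Tmem176b and Tmem176a, which start 109 bases apart on opposite strands of chromosome 6 and encode membrane proteins of immune cells, led. Tmem176b (chr6:48833812-48841374) had 17.0, 15.2 and 16.5 RPKM in shSMRT and 81.9, 76.2 and 78.9 in shGFP (-2.21 ± 0.05, adjusted p = 9.54e-11). Tmem176a had 4.03, 3.20 and 4.04 RPKM in shSMRT and 16.6, 15.1 and 17.3 in shGFP (-1.87 ± 0.08). Every shSMRT library was below every shGFP library for both genes. Reads were counted on both strands, so reads near their shared start could be assigned to either. Further falls of at least 1 were seen for the amino acid transporter Slc7a5 (-1.35 ± 0.03), the secreted proteins Stc2 (-1.24 ± 0.12) and Igfbp4 (-1.19 ± 0.04), the sialyltransferase St6galnac6 (-1.21 ± 0.04), the decarboxylase Mlycd (-1.19 ± 0.07), the actin regulator Cyfip2 (-1.15 ± 0.07), the leukocyte protein Lsp1 (-1.16 ± 0.05) and the angiogenic factor Vegfa (-1.10 ± 0.12). Vegfa had 1.23, 1.35 and 0.860 RPKM in shSMRT and 3.84, 3.03 and 3.86 in shGFP, the opposite direction to Vegfc. The tetraspanin Cd81 had 4.89, 5.47 and 5.78 RPKM in shSMRT and 15.9, 14.9 and 17.1 in shGFP (-1.41 ± 0.08), whereas the tetraspanin Cd9 was higher, at 534 ± 10.9 RPKM in shSMRT and 319 ± 7.09 RPKM in shGFP (SD, n = 3 each). Fam13c had 8.91, 7.45 and 8.76 RPKM in shSMRT and 24.6, 22.8 and 23.4 in shGFP, and the monocyte receptor Cd300e averaged 0.448 ± 0.128 RPKM in shSMRT and 2.74 ± 0.111 RPKM in shGFP. Cd300e reached the minimum in shGFP only and so had to differ.

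Interferon-stimulated genes, the antiviral set driven by STAT and IRF factors, were lower. Of 29 tested members, 2 of which reached the minimum in 1 group only, 22 fell and 2 rose, with a median of -0.46. Against a fold of 1.2, 10 of the 22 were called. Ifi27l2a had 58.0, 54.1 and 63.4 RPKM in shSMRT and 172, 154 and 167 in shGFP (-1.48 ± 0.06). Rtp4 had 8.42, 7.85 and 9.04 RPKM in shSMRT and 21.9, 18.5 and 19.2 in shGFP (-1.14 ± 0.08). The ubiquitin-like Isg15 (-0.55 ± 0.14) and the factor Irf7 (-0.63 ± 0.09) fell, while the nucleotide hydrolase Samhd1 (0.37 ± 0.03) and Stat2 (0.16 ± 0.05) rose. Against shNCOR, a comparison in which 52.2% of all genes were called, all 29 were higher in shSMRT, as for Rtp4 (2.56 ± 0.08, adjusted p = 8.94e-10), which averaged 0.603 RPKM in shNCOR. Of 15 tested MHC and costimulation genes, 1 of which reached the minimum in 1 group only, 5 rose and 5 fell (median 0.04), shares near the 24.5% and 31.7% of all genes. Cd80 (1.68 ± 0.07) and the class II loading gene H2-DMa (1.52 ± 0.09) rose, and the class II chaperone Cd74 (-0.51 ± 0.04) and the receptor Cd40 (-0.51 ± 0.14) fell. The rest of the calls were smaller: H2-D1 (0.23 ± 0.03), H2-K1 (0.17 ± 0.03) and the transporter Tap2 (0.24 ± 0.06) were higher, and Tap1 (-0.18 ± 0.07) and the immunoproteasome genes Psmb8 (-0.18 ± 0.07) and Psmb10 (-0.28 ± 0.07) lower. Class I genes share long stretches of sequence, so their counts are uncertain, and without shSMRT replicate 1, shSMRT replicate 3 or shGFP replicate 1, and with median ratio scaling or no filter, the members that fell numbered 3, and against a fold of 1.2 they numbered 1.

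Promoters of this list carry the interferon response motif (TTTC, then 2 bases of any kind, then TTTC, on either strand) in 10 of 21 matched members (47.6%), against 3.25% of all promoters and 7.69% of those lower by at least 1. Over all lower genes the share was 3.64% and over all higher genes 3.42%. The 150 bases before Isg15 (chr4:156200819-156200968, minus strand) and before Calhm6 (chr10:34127973-34128122, minus strand), a channel-like gene that is no member of the list and fell by 1.36 on the log2 scale, are shown with the matches, which here read on the opposite strand, in capitals. They begin 78 bases before the start of Isg15, as 3 overlapping matches, and 64 bases before that of Calhm6.
Isg15: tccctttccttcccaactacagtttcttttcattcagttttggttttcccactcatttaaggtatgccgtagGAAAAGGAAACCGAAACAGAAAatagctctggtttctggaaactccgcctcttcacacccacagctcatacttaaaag
Calhm6: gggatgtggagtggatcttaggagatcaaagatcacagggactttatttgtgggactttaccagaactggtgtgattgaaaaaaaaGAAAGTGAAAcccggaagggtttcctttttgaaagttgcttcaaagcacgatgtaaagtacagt

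RNA of lipid synthesis genes was mostly lower on both arms. Of 25 tested genes of cholesterol synthesis and uptake 20 fell and none rose (median -0.23), and of 16 tested genes of fatty acid synthesis and desaturation 13 fell and none rose (median -0.25). Over all genes 31.7% fell and 24.5% rose. Scd1, which makes monounsaturated fatty acids, had 19.1, 19.7 and 18.4 RPKM in shSMRT and 60.0, 60.9 and 58.4 in shGFP (-1.60 ± 0.04, adjusted p = 1.26e-10). Fdps, which makes farnesyl pyrophosphate for sterols, had 216, 218 and 217 RPKM in shSMRT and 379.6, 374 and 386 in shGFP (-0.80 ± 0.04). Dhcr7, the last enzyme of cholesterol synthesis, had 16.7, 17.6 and 17.6 RPKM in shSMRT and 34.2, 35.4 and 34.7 in shGFP (-0.97 ± 0.03). Fads2 (-0.78 ± 0.03), Acss2 (-0.76 ± 0.05) and Scd2 (-0.57 ± 0.03) fell as well. Against a fold of 1.2 the calls were 9 and 6, and under quantile normalization 17 cholesterol genes fell and 1 rose.

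Nuclear receptors that SMRT can bind, and their targets, went both ways. Of 16 tested LXR receptors and targets, 2 of which reached the minimum in 1 group only, 7 rose and 6 fell (median 0.07). Of 16 tested PPAR receptors and lipid handling genes 9 rose and 6 fell (median 0.16). Among all genes 24.5% rose and 31.7% fell. Rxra, the partner shared by both kinds of receptor, had 0.962, 1.04 and 0.992 RPKM in shSMRT and 3.19, 3.58 and 3.52 in shGFP (-1.15 ± 0.07). The LXR targets Abca1 (a cholesterol exporter, 0.94 ± 0.07), Smpdl3a (1.14 ± 0.07) and Lpl (lipoprotein lipase, 0.84 ± 0.03) rose, whereas Scd1 and Scd2, which are on this list too, fell. Abca1 was lower in shSMRT, at 1.64 RPKM, than in shNCOR, at 2.24 RPKM (-0.29 ± 0.07, adjusted p = 0.0055). Pparg rose (0.47 ± 0.10) and Ppard fell (-0.54 ± 0.06). Of the PPAR-linked genes, Cd36 had 175, 173 and 171 RPKM in shSMRT and 44.5, 49.4 and 46.1 in shGFP, while the fatty acid binding proteins Fabp5 (-0.95 ± 0.05) and Fabp4 (-0.83 ± 0.16) fell.

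Genes of amino acid supply were mostly lower. As background, cells raise these genes through the factor ATF4 when amino acids run short. Of 27 tested genes of the integrated stress response and amino acid supply 21 fell and 2 rose (median -0.44), 15 of the 21 also against a fold of 1.2. Of the 27, 2 reached the minimum in 1 group only. Over all genes 31.7% fell and 24.5% rose. Slc7a5, which imports leucine, had 28.4, 28.8 and 29.6 RPKM in shSMRT and 74.8, 74.6 and 76.1 in shGFP (-1.35 ± 0.03, adjusted p = 2.55e-11). The serine synthesis enzymes Phgdh (-0.87 ± 0.03), Psph (-0.77 ± 0.04) and Psat1 (-0.75 ± 0.03), the mitochondrial folate enzymes Aldh1l2 (-1.19 ± 0.08), Shmt2 (-0.75 ± 0.03) and Mthfd2 (-0.70 ± 0.03), the asparagine synthetase Asns (-0.75 ± 0.03) and the pseudokinase Trib3 (-1.04 ± 0.13) fell. Atf4 fell by 0.40 on the log2 scale, and the members that rose were Sesn2 (0.47 ± 0.07) and the cystine importer Slc7a11 (0.36 ± 0.07). Pck2, a mitochondrial carboxykinase outside the list, had 4.21, 4.68 and 4.82 RPKM in shSMRT and 11.6, 11.2 and 11.7 in shGFP (-1.17 ± 0.05).

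The ATF4 element (TGATGNAA, both strands) was found in 7 of 22 matched promoters of this list (31.8%), against 2.13% of all, in 3 of 26 promoters of genes lower by at least 1 (11.5%) and in none of 113 of genes higher by at least 1. Over all lower genes the share was 2.29% and over all higher genes 2.39%, both near that of all promoters. The 150 bases before the starts of Asns (chr6:7693210-7693359, minus strand) and Pck2 (chr14:55540116-55540265, plus strand) are shown with the match in capitals, which begins 23 bases before the start of Asns and 103 bases before that of Pck2, there on the opposite strand.
Asns: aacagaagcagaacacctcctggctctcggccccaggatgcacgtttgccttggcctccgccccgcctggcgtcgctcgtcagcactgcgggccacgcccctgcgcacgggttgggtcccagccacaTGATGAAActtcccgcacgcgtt
Pck2: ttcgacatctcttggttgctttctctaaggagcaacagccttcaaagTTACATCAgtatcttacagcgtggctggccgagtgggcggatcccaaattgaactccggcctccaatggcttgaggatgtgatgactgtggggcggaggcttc
Chaperones of the endoplasmic reticulum and the unfolded protein response were lower as well. Of 21 tested 17 fell and 3 rose (median -0.26). Falls were called for 31.7% of all genes and for 59.6% of those averaging 50 to 200 RPKM, and the part of level was not tested. Xbp1, the factor that drives many of them, had 84.6, 89.0 and 89.3 RPKM in shSMRT and 124, 117 and 119 in shGFP (-0.45 ± 0.03), Creld2 (-0.46 ± 0.03) and Sdf2l1 (-0.45 ± 0.04) fell, and Sel1l (0.23 ± 0.04), Syvn1 (0.19 ± 0.05) and Dnajb9 (0.25 ± 0.07) rose, the last of which was not called without shGFP replicate 2 (adjusted p = 0.0529). Against a fold of 1.2, 8 of the 17 were called.

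**Figure D4:**
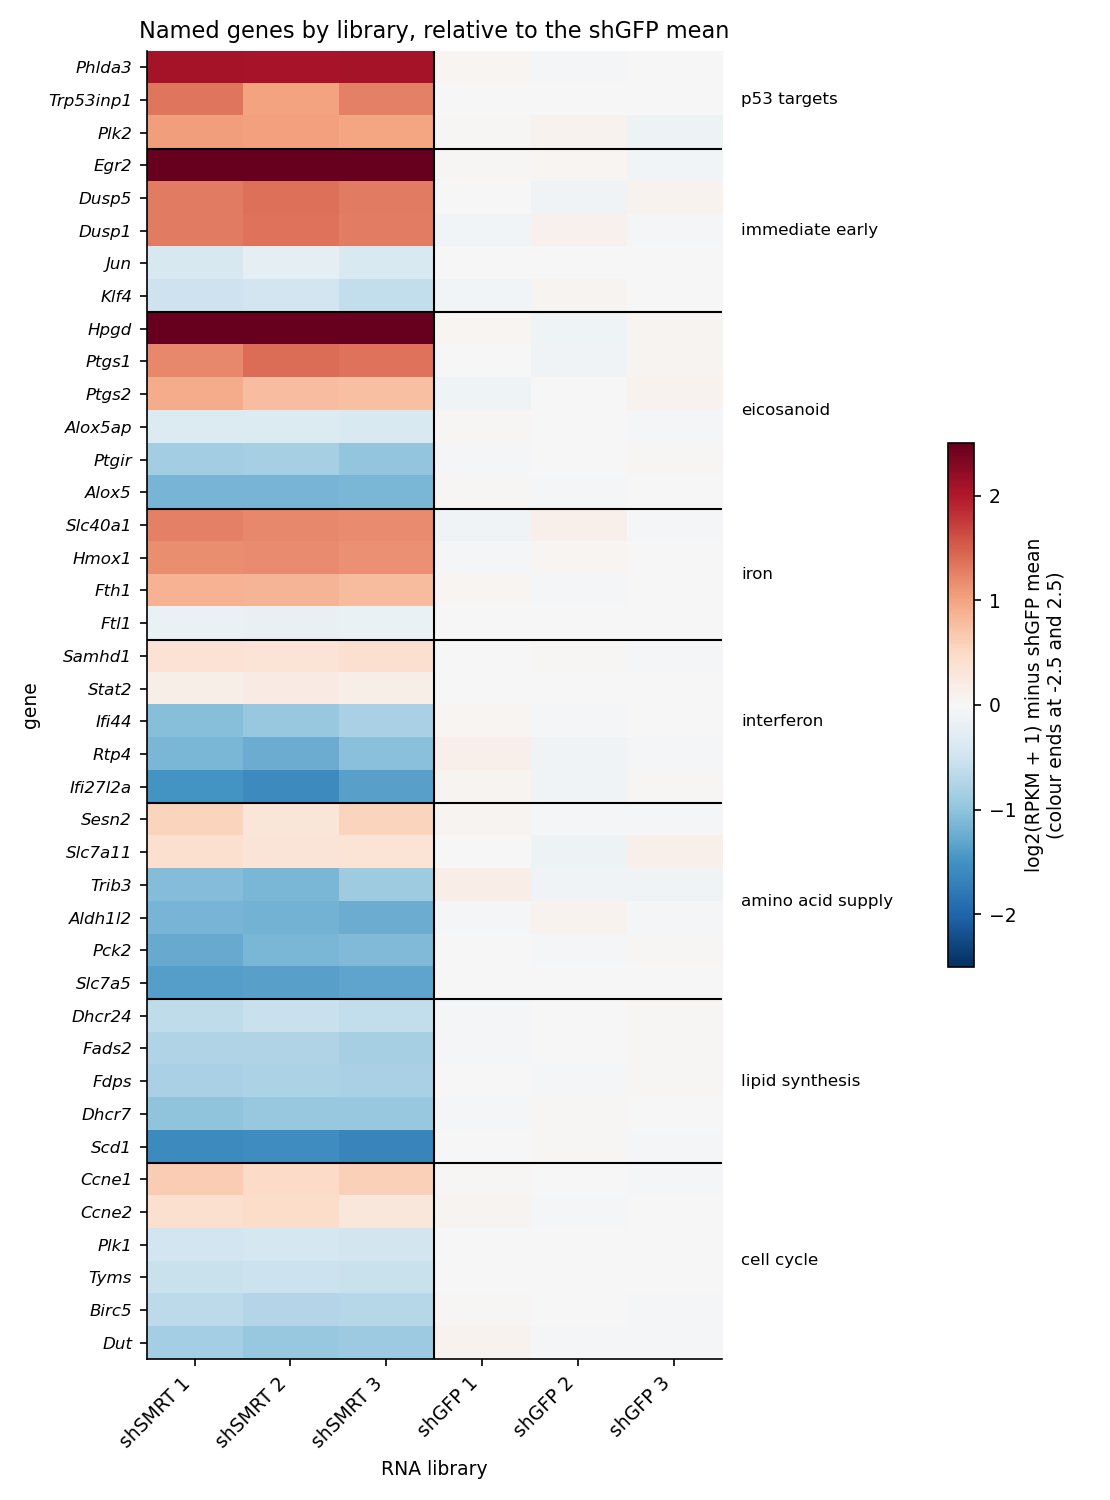
Log2(RPKM + 1) of 40 named genes in each library minus the mean of the shGFP libraries: columns are libraries (shSMRT on the left, shGFP on the right), rows are genes grouped by role, and colour runs from blue (lower) to red (higher), ending at -2.5 and 2.5. The 3 shSMRT columns share the colour of each row, and the shGFP columns stay near 0.

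Genes of cell division were lower by small amounts. Of 32 tested mitosis and spindle genes 28 fell and none rose (median -0.28), and of 33 tested DNA replication and nucleotide synthesis genes 28 fell and 2 rose (median -0.25). Falls were called for 31.7% of all genes and for 59.6% of those averaging 50 to 200 RPKM, and the part of level was not tested. Plk1, the mitotic kinase, had 49.9, 51.3 and 50.3 RPKM in shSMRT and 69.8, 69.5 and 70.2 in shGFP (-0.46 ± 0.02), and Birc5, of the chromosomal passenger complex, had 83.2, 78.5 and 79.7 RPKM in shSMRT and 134, 131 and 128 in shGFP (-0.70 ± 0.04). Dut, which removes dUTP, fell most, with 28.8, 26.8 and 27.9 RPKM in shSMRT and 56.4, 51.1 and 51.2 in shGFP (-0.90 ± 0.05). The 2 genes that rose were the cyclins of the step into S phase, Ccne1, with 40.1, 36.1 and 38.9 RPKM in shSMRT and 25.9, 25.8 and 24.9 in shGFP (0.57 ± 0.04), and Ccne2 (0.38 ± 0.05). Against a fold of 1.2, 9 mitosis and 8 replication genes were called lower. Matched promoters of the mitosis list hold the CHR element (TTTGAA, both strands) in 18 of 25 members (72.0%) against 12.0% of all promoters, and the CCAAT box (CCAAT, both strands) in 21 of 25 (84.0%) against 39.3%. Over all lower genes the CHR share was 13.6% and the CCAAT box share 42.1%, and over all higher genes 9.57% and 34.8%. Cdk1, whose RNA fell by 0.27 on the log2 scale, has 2 of each motif in the 150 bases before its start (chr10:69352913-69353062, minus strand), in capitals, the CCAAT box reading on the opposite strand.
Cdk1: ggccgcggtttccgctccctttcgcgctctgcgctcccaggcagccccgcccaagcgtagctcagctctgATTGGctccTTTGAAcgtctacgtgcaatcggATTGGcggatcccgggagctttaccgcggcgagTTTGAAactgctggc

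RNA of energy metabolism genes was mostly lower by small amounts. Of 24 tested glycolysis and hypoxia genes 18 fell and 3 rose (median -0.26), of 28 tested respiratory chain genes 20 fell and none rose (median -0.20), and of 28 tested mitochondrial ribosome genes 24 fell and none rose (median -0.23). Among all genes 31.7% fell, as did 59.6% of those averaging 50 to 200 RPKM, and the part of level in these lists was not tested. The lactate exporter Slc16a3 (-0.54 ± 0.04), the phosphofructokinase Pfkp (-0.51 ± 0.03), Ldha (-0.27 ± 0.04) and Pkm (-0.21 ± 0.03) fell, and the glucose transporter Slc2a1 (0.13 ± 0.04), P4ha1 (0.13 ± 0.03) and Pfkfb3 (0.18 ± 0.06) were slightly higher. The Slc2a1 call ended without shSMRT replicate 1, shGFP replicate 2 or shGFP replicate 3 (adjusted p from 0.0507 to 0.0572), and the Pfkfb3 call without shSMRT replicate 3 or shGFP replicate 2 and under 4 other settings (adjusted p from 0.0588 to 1, the last against a fold of 1.2). Atp5b, of the ATP synthase, had 763, 757 and 767 RPKM in shSMRT and 983, 953 and 966 in shGFP (-0.34 ± 0.03). Against a fold of 1.2, 5 of these glycolysis genes, 2 of the respiratory chain and none of the mitochondrial ribosome were called lower. Of 24 tested cytosolic ribosomal proteins 14 were not called, Rpl4 (0.16 ± 0.03) and Rplp0 (0.15 ± 0.04) rose and 8 fell (median -0.05). The share of them that fell was near the 31.7% of all genes. With median ratio scaling 3 of these proteins' genes rose and 1 fell. Without shSMRT replicate 2, shGFP replicate 1 or shGFP replicate 3, too, 1 fell.

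Calls were spread unevenly over gene length and level. Of 2672 genes with the shortest summed exons (27 to 1613 bases) 18.3% rose and 36.6% fell, and of 2671 with the longest (4110 to 19770 bases) 34.0% rose and 20.3% fell. With the trend over exon length removed, 2593 genes were higher and 3466 lower, and the part of length in single results was not tested. By level, genes with a mean under 2 RPKM were called higher in 27.7% and lower in 10.7% of cases, and those between 50 and 200 RPKM in 18.0% and 59.6%. The part of level in the gene lists was not tested. Among 349 genes over 200 RPKM, 66 were higher, 4 of them by at least 1, and 165 were lower, none by at least 1. By difference in RPKM, gains were led by Lyz2, Lyz1 and Fth1, then by the translation factor Eef1a1 (0.16 ± 0.04) and by S100a11 (830.2 ± 16.1 RPKM in shSMRT and 282 ± 14.6 RPKM in shGFP, SD, n = 3 each, 1.56 ± 0.04), and losses by Ftl1, Ppia (-0.29 ± 0.03) and Ptma (-0.36 ± 0.04). The Eef1a1 call ended with no filter on low values (adjusted p = 0.0808) and under quantile normalization (0.00).

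Some genes that changed by at least 1 lie next to each other. Within 100 kb there were 14 such pairs, 12 of genes that both rose and 2 of genes that both fell. Besides Tmem176b with Tmem176a, the falling pair was Tnni2 with Lsp1. Rising pairs included Clec7a with Olr1, Ccl9 with Ccl6, and Pla1a with Cd80. Hist2h2aa1 and Hist2h2aa2 overlap on opposite strands, so the fold changes of both (2.25 ± 0.14 and 2.23 ± 0.14) may come from the same reads.

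Open chromatin, measured by ATAC-seq in another 3 libraries per hairpin, was set beside the RNA. Of 51354 tested peaks 3506 (6.83%) were higher and 5602 (10.9%) lower in shSMRT, and under quantile normalization 4397 were higher and 3369 lower. Without shGFP replicate 1, shGFP replicate 3 or shSMRT replicate 1 the lower peaks numbered 2714, 3230 and 3775. The share of ATAC reads in peaks was 47.6, 49.9 and 49.5% in shSMRT and 54.0, 50.6 and 53.1% in shGFP, and its part in the lower calls was not tested. The peak nearest to the start site within 1 kb was higher for 27 of 112 genes higher by at least 1 in RNA (24.1%), against 0.545% of all 9724 genes with such a peak, and lower for 8. It was lower for 18 of 27 genes lower by at least 1 (66.7%), against 25.6% of all, and higher for none. Under quantile normalization these shares were 33.0% against 1.60% for higher peaks and 51.9% against 7.96% for lower ones. Within 50 kb, 64.7% of the 156 genes higher by at least 1 had a higher peak, against 20.4% of all genes, and 34 of 40 genes lower by at least 1 had a lower one (85.0%, against 55.3%). Under quantile normalization, the share was 71.2% against 27.3% for higher peaks and 30 of 40 genes, against 32.7% of all, for lower ones. For a lower promoter peak the share over all fell to 9.66% without shGFP replicate 1, 13.8% without shSMRT replicate 1 and 14.0% without shGFP replicate 3, with 59.3%, 55.6% and 51.9% at genes lower by at least 1. For a lower peak within 50 kb the share over all fell to 30.5% without shGFP replicate 1, with 80.0% at genes lower by at least 1. Many peaks lie within 50 kb of several genes, so the genes are not independent.

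**Figure D5:**
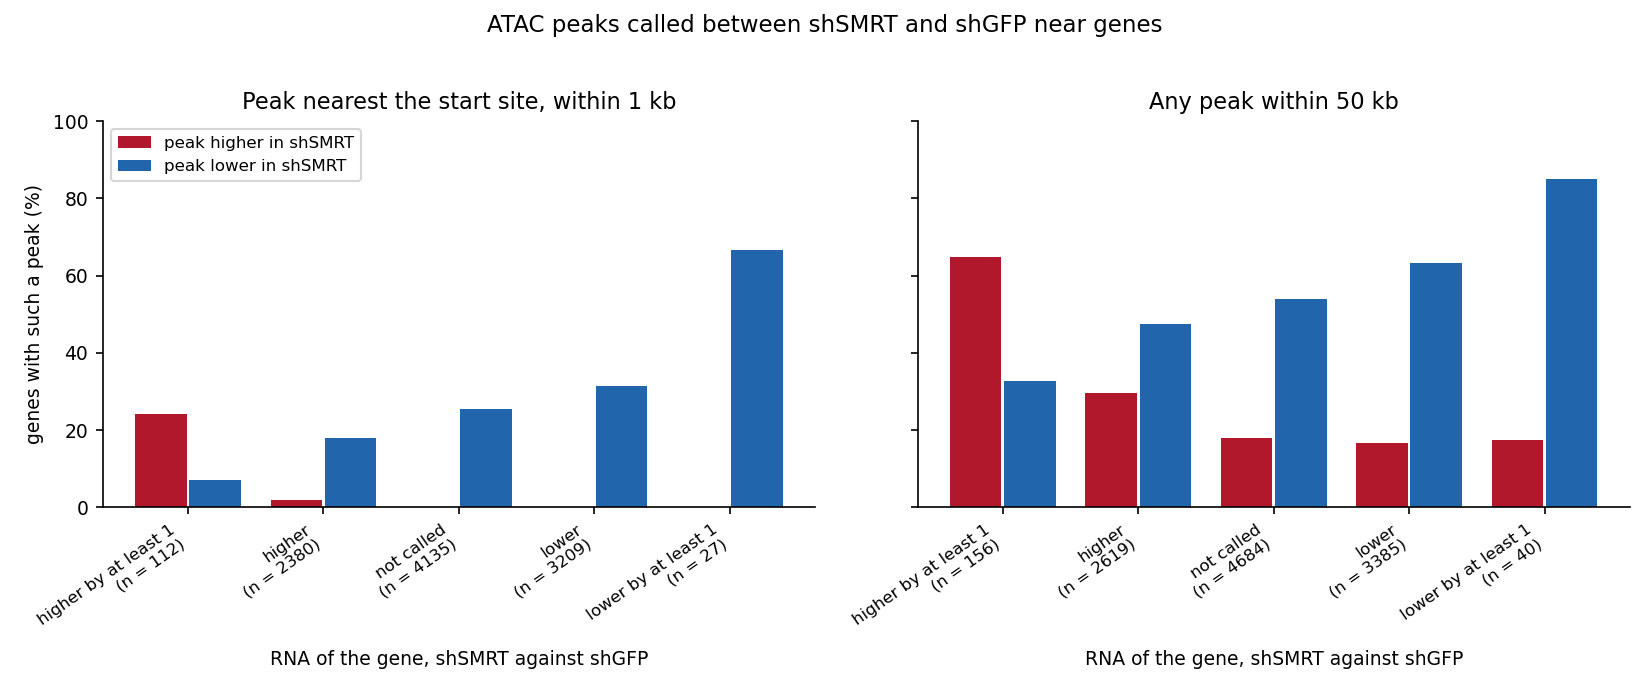
Share of genes (%) whose peak nearest the start site (left panel) or any peak within 50 kb (right panel) was called higher (red) or lower (blue) in shSMRT than in shGFP, by the change of the gene's RNA; the groups "higher" and "lower" include the genes that changed by at least 1, and n is the number of genes. In the left panel higher peaks make up 24.1% at genes higher by at least 1 and none at genes lower by at least 1, while lower peaks, whose number falls under quantile normalization, make up 66.7% at genes lower by at least 1.

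Single loci illustrate these shares. At Hpgd no peak lay within 1 kb of the start site, and the peak at chr8:56284990-56285329, 9.39 kb before it, had values of 39.4, 42.0 and 69.3 in shSMRT and 2.24, 0 and 9.22 in shGFP (reads scaled to 10 M per library, 2.75 ± 0.41 on the log2(value + 5) scale, adjusted p = 1.76e-06). At Atp6v0d2 the promoter peak (chr4:19922443-19922760) had 159.6, 141 and 146 in shSMRT and 30.2, 30.9 and 36.0 in shGFP (2.04 ± 0.16). At the shared start of Tmem176b and Tmem176a the peak (chr6:48840501-48841555) had 12.2, 15.9 and 28.3 in shSMRT and 113, 138 and 116 in shGFP (-2.47 ± 0.28), and at Stc2 the promoter peak had 5.63, 19.3 and 2.83 in shSMRT and 35.8, 42.2 and 54.4 in shGFP (-1.94 ± 0.39). The groups did not overlap at any of these 4 peaks, as held for 35.3% of all tested peaks. The Hpgd peak reached the minimum value of 10 in shSMRT only, so there the groups had to differ. At other strongly changed genes the promoter peak was not called, as for Egr2 (0.21 ± 0.13), Phlda3 (0.45 ± 0.22) and Slc7a5 (-0.29 ± 0.12).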

How the data were processed

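The deposited RNA table held RPKM values per gene, which the authors had made with HOMER (analyzeRepeats, mm10, exons, both strands, 1 transcript per gene), per the file headers. HISAT2, Bowtie2, MACS2 and DESeq2 are named in the submitters' processing notes, without roles. Whole reads recovered from the RPKM steps (at least 99.97% of values within 0.1 read) gave the depths of 39.1 to 44.2 M reads and served 1 alternative. Since RPKM are not counts, the main test was limma 3.58.1 (R 4.3.3) with a trend on log2(RPKM + 1) over all 9 libraries, with Benjamini-Hochberg adjustment over 10688 genes. A difference of 3 against 3 libraries in an exact permutation test cannot go below p = 0.1, so none was run. On simulated data 86% of genes changed 1.25-fold and 98% of those changed 1.5-fold were recovered, and 0.114% of unchanged genes were called. The simulation changed 50 genes per fold, all well above the minimum level. Its reads had a small fixed spread and no effect of culture or infection. It thus cannot speak to genes near the minimum or to calls made by other differences between the populations.

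The deposited ATAC-seq table gave reads per peak that the authors had scaled to 10 M reads per library with HOMER, per the file headers (other unit: decimal commas). It was tested with limma on log2(value + 5) over 51354 peaks left by a minimum of 10 in at least 3 libraries. Groups of the ATAC libraries come from their titles, which give a hairpin each, although the protocol text speaks of wild-type cells.

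The genes, lists and motifs were chosen with earlier results of these data known. Genes were named by rule from the called genes whose groups did not overlap (25 each way by fold change, 15 each way by difference in RPKM, up to 8 each way among genes under 0.2 RPKM in 1 group, and up to 3 each way per list). Other genes named here were chosen after their values were seen. RNA of the hairpin's own target is not reported here. Promoters were taken from RefSeq (GRCm38.p6), matched by symbol for 8376 genes, from 250 bases before to 50 after the start site. Alternatives changed the pseudocount, filter, scaling, fit and fold threshold and left out each library. The other 54 samples were not used here.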

Additional observations from a re-analysis of the deposited data

How the results depend on the processing

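The calls between shSMRT and shGFP (2619 higher, 3385 lower) stayed within 1.5 times those numbers under every alternative run except a test against a fold of 1.2 (726 higher, 534 lower), which leaves out small changes by construction. The same test on shSMRT against shNCOR gave 766 higher and 346 lower, against 2472 and 3110. Leaving out 1 library gave 2297 to 2492 higher and 2993 to 3215 lower genes against shGFP, and 2203 to 2325 higher and 2750 to 2878 lower against shNCOR. That test turned the split to more higher than lower calls. Of the other settings, voom on the recovered reads (3040 higher, 3015 lower) and median ratio scaling (2897 and 3008) moved the split most. Same-numbered libraries deviated together only weakly (correlations 0.0526, 0.0306 and 0.0102, against -0.0423 to 0.00911 for other pairs). With 3 libraries per group this cannot decide whether the numbers pair the samples. With a replicate block 2677 genes were higher and 3471 lower, and no named gene changed its call.

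Of 189 named genes called, 57 lost the call against a fold of 1.2 and 13 under another setting. The reversed values were those of 3 uncalled subunits: Gps2 (0.00908 under quantile normalization, against -0.06), Ncor1 (-0.0602 with the exon length trend removed, against 0.05) and Tbl1x (0.00442 without shSMRT replicate 1 and 0.004 without shGFP replicate 3, against -0.04, with a range of -0.0861 to 0.00442 over the libraries left out). Of the ATAC peaks, 3369 were lower and 4397 higher under quantile normalization, against 5602 and 3506. Leaving out 1 library gave 2408 to 2854 higher and 2714 to 4814 lower peaks, and the cause was not tested. With a replicate block 3473 were higher and 5171 lower. Depth limits genes near 1 RPKM, where the pseudocount also lowers fold changes.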
